A study of Homo sapiens with 6 samples.

Results

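The tubulin genes examined here were 10 genes taken by symbol from a table of 27420 genes: the alpha-tubulin genes TUBA1A, TUBA1B and TUBA1C, the beta-tubulin genes TUBB, TUBB2A, TUBB2B, TUBB3, TUBB4B and TUBB6, and the gamma-tubulin gene TUBG1. The symbols matched 11 rows, since TUBB3 is listed under 2 gene identifiers. RNA was sequenced from A673 and SKNMC, established Ewing sarcoma cell lines grown in the same medium. For each line there was 1 library of cells given the vehicle DMSO for 6 h, 1 of cells given 50 nM THZ1 for 6 h and 1 of cells given 200 nM THZ1 for 6 h, which makes 6 libraries. THZ1 is a covalent inhibitor of CDK7, a kinase that acts on RNA polymerase II, and the comparisons address how transcript levels differ after it. Each condition of a line has 1 library, and values and folds are given without a test; a fit over both lines with line as a block was possible and was not run. The title given to the table calls its values averages, and whether a column pools more than 1 culture is not given in the sources used here.

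Alpha- and beta-tubulin form the heterodimers that polymerise into microtubules, the filaments of the mitotic spindle and of intracellular transport, and gamma-tubulin sits in the ring complex from which new microtubules grow. Cells carry several alpha and beta genes, called isotypes, whose proteins are highly alike and differ mostly near the C terminus, and TUBB3 and TUBB2B are best known from neurons. Cells also match tubulin mRNA to the amount of free tubulin dimer: TTC5 binds the start of the growing tubulin chain on the ribosome, and the mRNA is then degraded through SCAPER and the CCR4-NOT complex.

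The start of the coding sequence is shown because in alpha- and beta-tubulin this mechanism reads the peptide it encodes, and TUBG1 is set beside them. Each run holds the first 24 coding bases of the reference transcript, 5′ to 3′ in the sense of the gene, with the first 12 in capitals (GENCODE release 44 on GRCh37, which is the hg19 build of the table).
TUBA1B: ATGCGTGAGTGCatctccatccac
TUBB: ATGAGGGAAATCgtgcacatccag
TUBB2A: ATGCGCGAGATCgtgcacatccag
TUBB2B: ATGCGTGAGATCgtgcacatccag
TUBB6: ATGAGGGAGATCgtgcacatccag
TUBG1: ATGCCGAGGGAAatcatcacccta
The run of TUBA1B was split by an intron, with 3 bases in exon 1 (chr12:49525081-49525083, minus strand) and 21 in the next exon (chr12:49523485-49523505), and the same letters open TUBA1A and TUBA1C. TUBB (chr6:30688284-30688307, plus strand), TUBB2A (chr6:3157674-3157697, minus strand), TUBB2B (chr6:3227754-3227777, minus strand), TUBB6 (chr18:12308292-12308315, plus strand) and TUBG1 (chr17:40761756-40761779, plus strand) held theirs in a coding exon without interruption. The first 12 bases fell into 6 different sequences among the 10 genes: 3 alpha genes shared 1 of them, TUBB and TUBB4B shared another, and TUBB3 and TUBB6 shared another. They encode 3 peptides, MREC in the 3 alpha genes, MREI in the 6 beta genes and MPRE in TUBG1.

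The 60 bases before the transcription start are shown for 6 genes, picked after their values were seen: TUBA1A and TUBA1B, whose folds lay close together, the near-copies TUBB2A and TUBB2B, and TUBB6 and TUBG1, which were 1.5-fold lower in SKNMC. Capitals mark TATAA or TATATA, searched on the strand of the gene, and the letters end at the base before the start of the reference transcript on GRCh37.
TUBA1A: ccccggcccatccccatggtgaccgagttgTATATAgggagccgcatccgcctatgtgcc
TUBA1B: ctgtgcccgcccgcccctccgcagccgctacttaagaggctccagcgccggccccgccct
TUBB2A: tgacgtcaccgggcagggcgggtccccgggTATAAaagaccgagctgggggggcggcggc
TUBB2B: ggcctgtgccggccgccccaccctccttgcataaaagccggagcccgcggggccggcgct
TUBB6: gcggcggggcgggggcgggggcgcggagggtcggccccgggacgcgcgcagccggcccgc
TUBG1: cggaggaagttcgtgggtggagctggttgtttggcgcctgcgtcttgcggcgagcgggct
These lie at chr12:49582864-49582923 (minus strand), chr12:49525179-49525238 (minus), chr6:3157779-3157838 (minus), chr6:3227888-3227947 (minus), chr18:12308180-12308239 (plus) and chr17:40761641-40761700 (plus), in the same order. For TUBA1A, TUBB2B and TUBB6 the whole stretch lies inside the deposited gene model, which starts further upstream than the reference transcript. The letters planned at first were TATAAA, then CCAAT, and then GGGCGG, each searched on both strands over 250 bases before the start, set beside 19894 protein-coding reference transcripts. TATAAA was found before 1 of the 10 tubulin genes, TUBB2A, and before 9.25% of the reference transcripts. CCAAT was found before 8 of the 10 tubulin genes and 34.3% of the reference transcripts, and GGGCGG before 8 of the 10 and 59.1%. The shorter letters TATAA or TATATA and the window of 60 bases were chosen after the tubulin promoters had been seen, so the following count is a description of a choice made on these genes. With them a match was found before 5 of the 10 genes (TUBA1A, TUBA1C, TUBB2A, TUBB3 and TUBB4B), starting between 29 and 33 bases before the start, and before 7.34% of the reference transcripts. A match describes letters in a window and says nothing of a bound factor.

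The tubulin genes were compact. The reference transcripts of TUBB6 and the other 8 alpha and beta genes had 4 exons each, and that of TUBG1 had 11. Over the 10 genes the median was 4 exons, 1689 transcript bases and a span of 4.68 kb, against 9 exons, 3365 bases and 28.6 kb over the 11759 of 12399 genes above 1 FPKM in a DMSO library that had a protein-coding reference transcript. FPKM, the deposited unit, corrects the fragments of a gene for the length of its transcripts and for how many fragments the library had mapped.

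Because tubulin genes are near-copies, the share of each transcript whose 100-base windows recur elsewhere was measured. In TUBB2A, 54.6% of the 100-base windows of the reference transcript had an exact copy elsewhere in the genome, and in TUBB2B 48.7% had one. The coding sequences of these genes were identical at 98.2% of 1335 bases, and those of TUBA1A and TUBA1B at 97.2% of 1353 bases. The share was 36.9% in TUBA1B, 21.0% in TUBA1A, 12.1% in TUBA1C and 10.5% in TUBG1. TUBB, TUBB3 and TUBB4B had between 3.01% and 5.42%, and no window of TUBB6 had a copy. TUBB3 shared 92.5% of its windows with transcripts of other annotated genes, all of which lay in the transcripts of another gene at the same place, and that gene is the other row with the TUBB3 symbol. It stood below 1 FPKM in all 6 libraries, at 0.325, 0.407 and 0.658 FPKM in A673 with DMSO, 50 nM and 200 nM, and at or below 0.241 FPKM in SKNMC. The values below are those of the more abundant of these TUBB3 rows. How the authors' estimation divided shared reads between these genes is not given in the sources used here, so the levels of TUBB2A and TUBB2B in particular are uncertain.

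**Figure D1:**
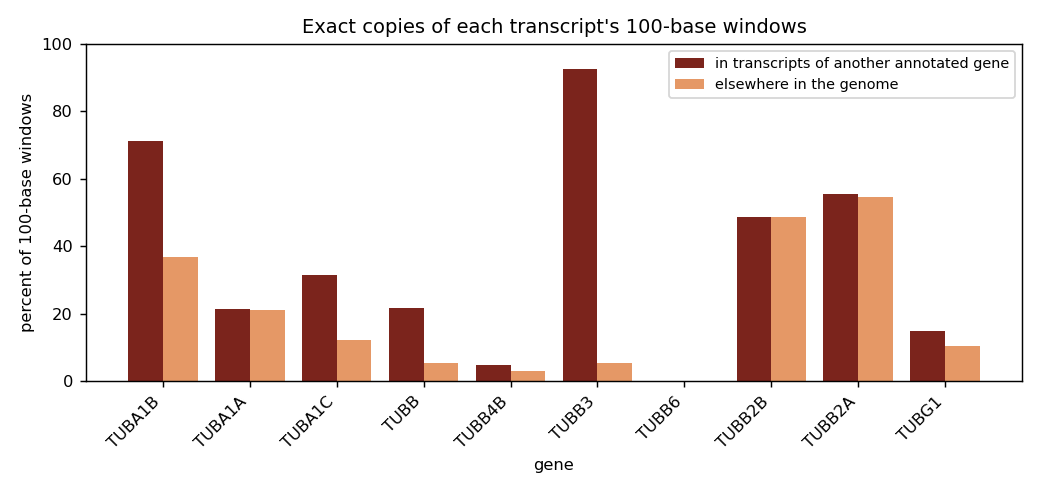
Percent of all 100-base windows of each tubulin gene's reference transcript (y axis) with an exact copy in transcripts of another annotated gene (dark bars) or elsewhere in the genome (light bars), by gene (x axis). TUBB2A and TUBB2B have the highest genomic shares, at 54.6% and 48.7%, and TUBB6 has none; antisense and read-through gene models at the same place count in the dark bars, as for TUBB3 and TUBA1B.

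The labelled cell type was checked against marker genes. Of 12 Ewing sarcoma markers, 12 were above 1 FPKM in both DMSO libraries, the most abundant being CD99 at 504 FPKM in A673 and 313 in SKNMC. Summed, these markers stood at 1076, 1078 and 1156 FPKM in A673 with DMSO, 50 nM and 200 nM, and at 1048, 937 and 900 in SKNMC. In A673 CD99 stood at 504, 646 and 763 FPKM, so that it was higher at 50 nM while the sum was nearly level. Of the 12 markers 10 were below DMSO in A673 at 50 nM, and 9 were at 200 nM in each line. Among the latter were NR0B1 (58.6 and 7.97 FPKM in A673, 25.2 and 8.10 in SKNMC) and STEAP1 (175 and 104, 208 and 70.2). FLI1, whose product is part of the EWS-FLI1 fusion of this tumour, stood at 31.5, 15.0 and 4.26 FPKM in A673 and at 27.3, 15.2 and 4.56 in SKNMC. The fibroblast markers COL1A1, COL1A2, DCN and LUM summed to 98.4, 106 and 107 FPKM in A673 and to 147, 177 and 239 in SKNMC, COL1A2 being the most abundant, and DCN and LUM, at 30.9 and 23.5 FPKM in SKNMC with DMSO, stood at 0.31 and 0.21 in A673 with DMSO. Of the blood markers, PTPRC stood at 10.2, 7.90 and 13.1 FPKM in SKNMC and at 0.0201, 0.0291 and 0.0125 in A673, while CD3E and HBB were listed at 0 in all 6 libraries. KRT18 made up most of an epithelial sum of 137, 127 and 125 FPKM in A673 and 155, 90.9 and 86.4 in SKNMC, while CDH1 was listed at 0 in both DMSO libraries. Of 5 neuronal markers 4 were listed, with sums of 5.41, 4.76 and 6.39 FPKM in A673 and 10.3, 9.07 and 7.92 in SKNMC, the most abundant with DMSO being SYP in A673 and DCX in SKNMC. Of 3 endothelial markers 2 were listed, with sums of 0.0339 FPKM in A673 and 0.127 in SKNMC with DMSO. The part of these differences in the tubulin values was not tested, and in bulk RNA fewer cells of a type and less RNA per cell cannot be told apart.

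In the DMSO libraries the tubulin genes spanned a wide range of levels. TUBA1B was the 7th most abundant of all listed genes in A673 and the 46th in SKNMC, and TUBB the 28th and the 56th. The 10 genes together held 0.955% of the listed FPKM in A673 and 0.643% in SKNMC. From highest to lowest, the order in A673 was TUBA1B, TUBB, TUBA1C, TUBB4B, TUBA1A, TUBB3, TUBB6, TUBB2B, TUBG1 and TUBB2A. In SKNMC it was TUBA1B, TUBB, TUBA1A, TUBA1C, TUBB4B, TUBB6, TUBG1, TUBB3, TUBB2A and TUBB2B. Neighbours such as TUBA1C and TUBB4B in A673 (357 and 355 FPKM) or TUBA1A and TUBA1C in SKNMC (204 and 201 FPKM) lay close together, and without replicates their order is not established.

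**Figure D2:**
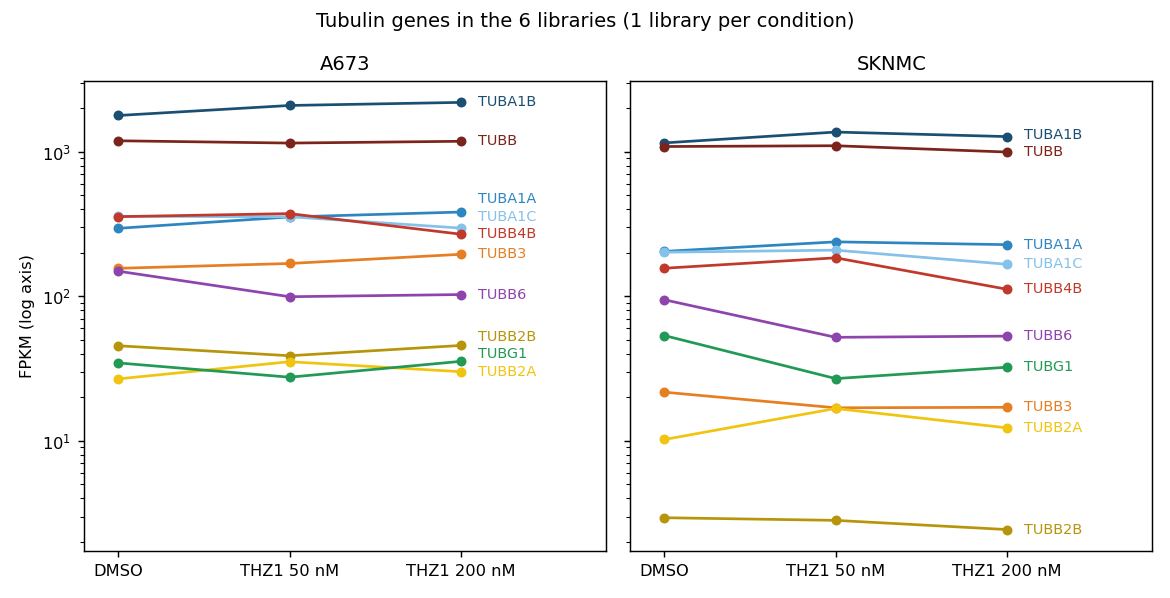
FPKM of the 10 tubulin genes (y axis, log scale) in the DMSO, 50 nM and 200 nM libraries (x axis) of A673 and SKNMC, each point 1 library. TUBA1B and TUBB lie at the top in both lines, while TUBB3 and TUBB2B lie at 156 and 45.5 FPKM in A673 with DMSO and at 21.7 and 2.94 in SKNMC.

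Each THZ1 library was set against the DMSO library of its line as the log2 ratio of FPKM with 1 added to both, so that folds of low genes come out smaller than their raw ratios. A gene was taken as active when above 1 FPKM in the DMSO library of its line, which held for 11077 genes in A673 and 11896 in SKNMC, the 10 tubulin genes among them in both lines. FPKM is a share of the library, so the fold of any gene moves with the scaling, and the median over all active genes is given as its background: −0.27 and −0.40 for A673 at the low and the high dose, and −0.32 and −0.55 for SKNMC. Where libraries were instead put on the 75th percentile of active genes, these medians moved by 0.22, 0.32, 0.25 and 0.48, and where they were put on the median ribosomal protein gene, by −0.18, −0.29, −0.28 and −0.46. Folds of single genes are therefore also given as their distance from the active median.

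Among the alpha genes, TUBA1B, the main alpha isotype of both lines, stood at 1776, 2083 and 2187 FPKM in A673 with DMSO, 50 nM and 200 nM. In SKNMC it stood at 1148, 1364 and 1269 FPKM. The log2 fold changes were 0.23 and 0.30 in A673 and 0.25 and 0.14 in SKNMC. These were small differences, 0.50 and 0.70 above the active median in A673 and 0.57 and 0.69 above it in SKNMC. The sign of TUBA1B itself turned negative under scaling to the ribosomal protein genes in A673 at 200 nM and in SKNMC at both doses, while its place above the active median held under each scaling run.

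TUBA1A, an alpha isotype abundant in developing neurons, had values of 295, 353 and 382 FPKM in A673 with DMSO, 50 nM and 200 nM. In SKNMC the values were 204, 238 and 227 FPKM. Against DMSO the log2 values were 0.26, 0.37, 0.22 and 0.15 in the same order of comparisons, close to those of TUBA1B in each. They lay 0.53, 0.77, 0.54 and 0.70 above the active median, and in SKNMC they turned negative under scaling to the ribosomal protein genes. TUBA1C, another alpha gene of the same cluster on chromosome 12, showed 357, 354 and 296 FPKM in A673 and 201, 208 and 166 in SKNMC. Its 200 nM libraries were the lowest of each line in the values as deposited. Its log2 fold changes were −0.01 and −0.27 in A673 and 0.05 and −0.27 in SKNMC, which lay above the active median by 0.26, 0.13, 0.37 and 0.27. The 4 signs depended on the scaling, and with the 75th percentile of active genes the 200 nM values were 0.10 and 0.29, above DMSO. TUBA1A (chr12:49578578-49583107, minus strand) and TUBA1C (chr12:49582518-49667114, plus strand) overlap by 590 bases in the deposited gene models, and whether the estimation used strand is not given in the sources used here.

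Summed over the 9 listed alpha genes, FPKM was 2476, 2829 and 2904 in A673 and 1588, 1838 and 1684 in SKNMC. This gave log2 values of 0.19, 0.23, 0.21 and 0.08, which were negative in all 4 comparisons under scaling to the ribosomal protein genes. TUBA1B made up 71.7% of the sum in A673 with DMSO, then 73.6% and 75.3% with rising dose. In SKNMC the shares were 72.3%, 74.2% and 75.4%. The TUBA1C share went the other way, from 14.4% to 12.5% and 10.2% in A673 and from 12.7% to 11.3% and 9.88% in SKNMC. A share within 1 family does not depend on how the library was scaled, and both shares moved with dose in the same order in both lines.

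Among the beta genes, TUBB, the main beta isotype of dividing cells, had 1187, 1145 and 1178 FPKM in A673 and 1084, 1097 and 993 in SKNMC. The 6 values lay within a narrow band. Its log2 fold changes were −0.05, −0.01, 0.02 and −0.13 for A673 at 50 and 200 nM and SKNMC at 50 and 200 nM, and they lay 0.22, 0.38, 0.34 and 0.42 above the active median. The 4 signs were positive with the 75th percentile of active genes and negative with the ribosomal protein genes.

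TUBB4B, a widely expressed beta isotype also found in cilia, had 355, 373 and 268 FPKM in A673. In SKNMC it had 156, 184 and 112 FPKM. In both lines the 50 nM library was the highest and the 200 nM library the lowest in the values as deposited. Under scaling to the ribosomal protein genes the 50 nM libraries lay below DMSO (−0.14 in A673 and −0.10 in SKNMC), and under that to the 75th percentile the 200 nM library of SKNMC lay above it (0.086). Its log2 fold changes of 0.07 and −0.40 in A673 and 0.24 and −0.48 in SKNMC put TUBB4B 0.34 and 0.56 above the active median at 50 nM and within 0.1 of it at 200 nM. Its share of the summed beta-tubulin FPKM was highest at 50 nM in both lines, and went from 18.4% with DMSO to 14.7% at 200 nM in A673 and from 11.3% to 9.29% in SKNMC.

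TUBB6, a beta isotype of many non-neuronal tissues, had 149, 99.2 and 103 FPKM in A673. In SKNMC it had 94.5, 52.0 and 53.0 FPKM. Both THZ1 libraries lay below the DMSO library in each line and close to each other. On the log2 scale this was −0.58 and −0.53 in A673, the former just short of the 1.5-fold threshold used below, and −0.85 and −0.82 in SKNMC. Relative to the active median TUBB6 was lower by −0.31 and −0.14 in A673 and by −0.53 and −0.28 in SKNMC, and it stayed below DMSO and below the active median under each scaling run. As given above, no 100-base window of TUBB6 had a copy elsewhere. Its deposited gene model (chr18:12307667-12344319, plus strand) overlaps that of AFG3L2 on the other strand by 15378 bases.

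TUBB3, the beta isotype used as a marker of neurons, had 156, 168 and 195 FPKM in A673. In SKNMC it had 21.7, 16.9 and 17.1 FPKM. The THZ1 libraries were above DMSO in A673 and below it in SKNMC. This made log2 fold changes of 0.11 and 0.32 in A673 and −0.34 and −0.33 in SKNMC, a difference in sign between the lines that was not tested. Under scaling to the ribosomal protein genes both A673 values turned negative, and under that to the 75th percentile the SKNMC value at 200 nM turned positive. Relative to the active median, TUBB3 lay 0.38 and 0.72 above in A673, −0.02 from it in SKNMC at 50 nM and 0.22 above at 200 nM.

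TUBB2A and TUBB2B, neighbouring beta genes on chromosome 6, had low levels. TUBB2A had 26.8, 35.3 and 30.1 FPKM in A673 and 10.2, 16.8 and 12.3 in SKNMC. It was highest at 50 nM in both lines. Its log2 fold changes were 0.38 and 0.16 in A673 and 0.66 and 0.25 in SKNMC, and the sign turned negative at 200 nM in both lines under scaling to the ribosomal protein genes. These values lay 0.66, 0.55, 0.98 and 0.79 above the active median. TUBB2B had 45.5, 38.8 and 45.7 FPKM in A673 and 2.94, 2.82 and 2.44 in SKNMC. Its log2 fold changes of −0.22 and 0.01 in A673 and −0.04 and −0.20 in SKNMC were positive with the 75th percentile of active genes and negative with the ribosomal protein genes, and lay 0.05, 0.40, 0.28 and 0.35 above the active median. TUBB2A was thus the higher of the pair in SKNMC, and TUBB2B in A673 by FPKM in each of the 3 libraries.

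Summed over the 9 listed beta genes, FPKM was 1927, 1867 and 1829 in A673 and 1383, 1383 and 1203 in SKNMC. The sign of these small differences depended on the scaling in all 4 comparisons. TUBB made up 61.6%, 61.3% and 64.4% of this sum in A673 and 78.3%, 79.3% and 82.5% in SKNMC. The TUBB6 share was 7.73%, 5.31% and 5.62% in A673 and 6.83%, 3.76% and 4.41% in SKNMC. TUBB3 held 8.09%, 9.02% and 10.7% in A673, and 1.57%, 1.22% and 1.42% in SKNMC. The ratio of summed alpha to summed beta FPKM, which scaling does not change, was 1.28, 1.52 and 1.59 in A673 with DMSO, 50 nM and 200 nM. In SKNMC it was 1.15, 1.33 and 1.40. The alpha share of tubulin transcripts was thus higher in each THZ1 library than in the DMSO library of its line.

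**Figure D3:**
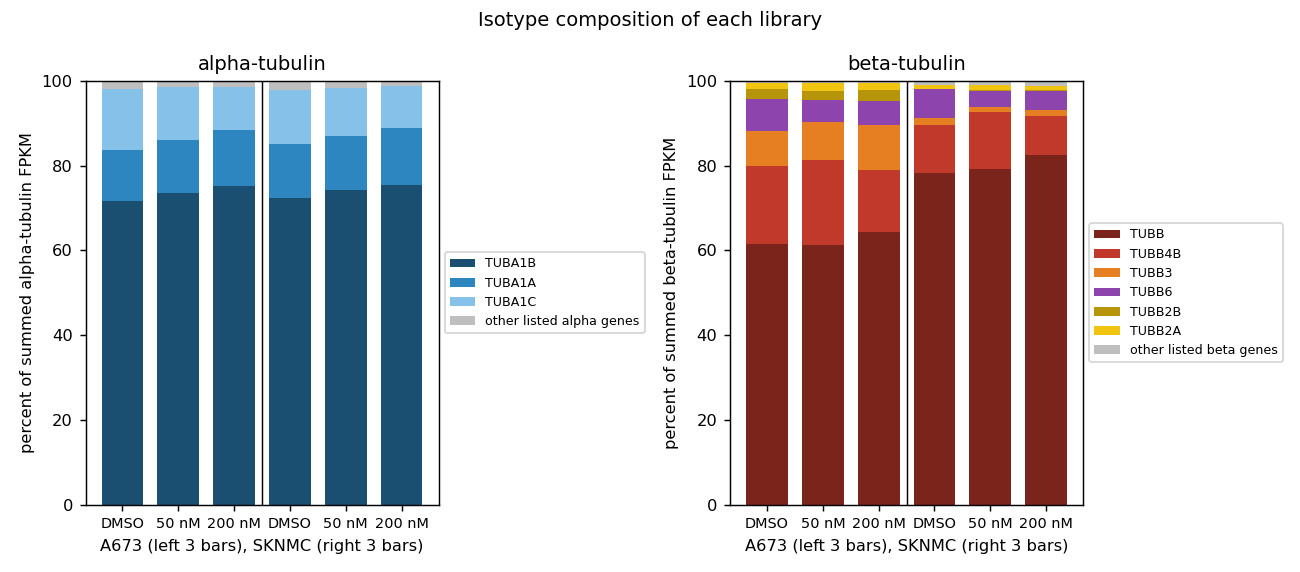
Share of each gene in the summed FPKM of all listed alpha-tubulin genes (left) and beta-tubulin genes (right), in percent (y axis), for the 6 libraries (x axis). TUBA1B fills 71.7% to 75.4% of the alpha bars; TUBB fills 61.3% to 64.4% of the beta bars in A673 and 78.3% to 82.5% in SKNMC.

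TUBG1, the main gamma-tubulin gene and a subunit of the ring complex that nucleates microtubules, had 34.6, 27.6 and 35.5 FPKM in A673. In SKNMC it had 53.5, 27.0 and 32.3 FPKM. In SKNMC both THZ1 libraries were below DMSO, while in A673 the 200 nM library was level with DMSO. Log2 fold changes were −0.32 and 0.04 in A673 and −0.96 and −0.71 in SKNMC. Relative to the active median these were −0.04, 0.43, −0.64 and −0.16, and TUBG1 stayed below DMSO under each scaling run in SKNMC and in A673 at 50 nM, while its sign in A673 at 200 nM depended on the scaling. Its gene model (chr17:40761693-40767252, plus strand) overlaps that of FAM134C on the other strand by 949 bases.

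Counted past a 1.5-fold change, 0 of the 10 tubulin genes were lower in A673 at 50 nM, where 31.8% of active genes were, and 0 of 10 at 200 nM, where 41.1% were. In SKNMC 2 of 10 were lower at 50 nM (TUBB6 and TUBG1), against 33.5% of active genes, and the same 2 genes at 200 nM, against 48.0%. Higher by 1.5-fold were 0 of 10 in A673 at 50 nM (1.78% of active genes), 0 at 200 nM (1.70%), 1 in SKNMC at 50 nM, TUBB2A (2.43%), and 0 in SKNMC at 200 nM (2.81%). Without a filter on low values the shares of all listed genes were smaller, with 13.1% and 17.0% lower in A673 and 15.0% and 21.3% in SKNMC, and 1.12%, 1.36%, 1.38% and 1.96% higher. A 2-fold decrease was reached by 0 of 10 genes in each comparison, where the shares of active genes were 15.9% and 25.3% in A673 and 15.8% and 27.3% in SKNMC. The comparisons within a line share the DMSO library. These counts depended on the scaling. With the 75th percentile of active genes 1 of the 10 was lower in SKNMC at 50 nM (22.7% of active genes) and 0 at 200 nM (26.6%), where TUBB6 and TUBG1 stood at −0.26 and −0.16. With the ribosomal protein genes TUBB2A was no longer 1.5-fold higher (0.34), and 7 of the 10 were lower in SKNMC at 200 nM, where 76.3% of active genes were.

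The median log2 fold change over the 10 genes was 0.03 and 0.02 in A673 with rising dose, and 0.03 and −0.24 in SKNMC, with signs that depended on the scaling. That is above the active median by 0.30, 0.42, 0.35 and 0.31. Abundant genes as a whole also lay above the active median: 823 genes above 100 FPKM in A673 with DMSO, a bound chosen after seeing the data, had medians of 0.14 and 0.21, and 762 such genes in SKNMC had 0.12 and 0.01. Of these abundant genes 5.10% and 7.41% were 1.5-fold lower in A673 and 6.04% and 12.5% in SKNMC. By the same fold 0.365% and 2.07% of them were higher in A673 and 1.05% and 8.92% in SKNMC. The tubulin medians were below those of the abundant genes in each comparison, and 7 of the 10 tubulin genes in A673 with DMSO and 5 in SKNMC were above 100 FPKM.

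**Figure D4:**
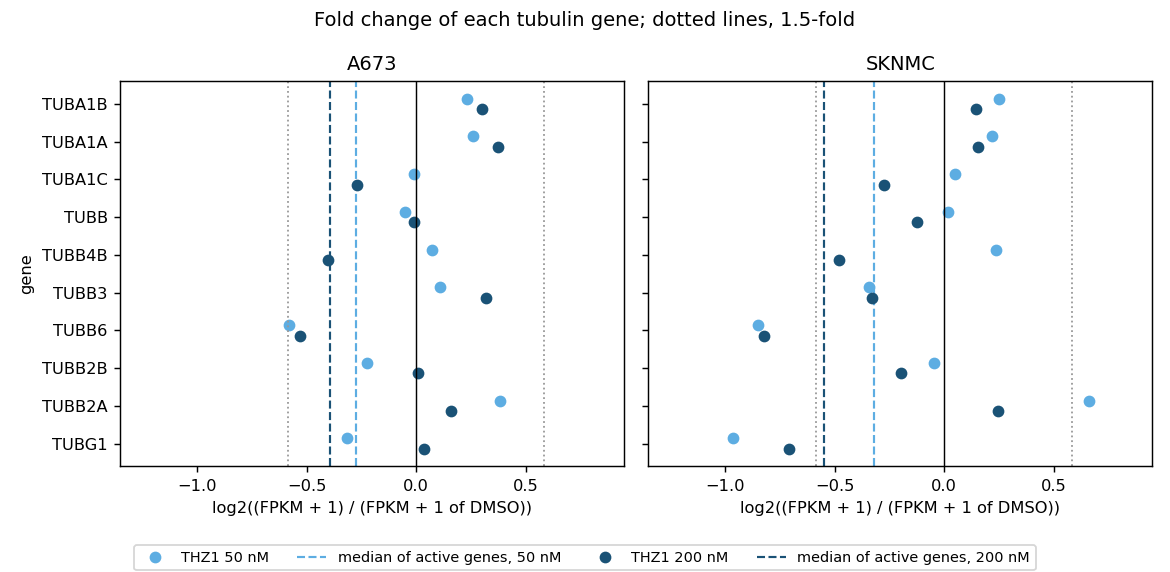
log2 fold change of each tubulin gene (x axis, FPKM with 1 added, against DMSO) at 50 nM (light points) and 200 nM (dark points) in A673 and SKNMC, with dashed lines at the median of all active genes and dotted lines at 1.5-fold. TUBB6 lies left of the dashed lines in both lines and TUBG1 does so at both doses in SKNMC (−0.96 and −0.71), while TUBA1A and TUBA1B lie right of 0 in the values as deposited, which turns under scaling to the ribosomal protein genes for TUBA1B in A673 at 200 nM and for both genes in SKNMC.

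The doses were also compared with each other, 200 nM against 50 nM. The DMSO libraries enter only in the choice of active genes, those above 1 FPKM in DMSO. Its values are as deposited, without other scalings. The lowest value was that of TUBB4B, with a log2 fold change of −0.47 in A673 and −0.72 in SKNMC. TUBG1 had the highest values, 0.35 in A673 and 0.25 in SKNMC. TUBA1C was at −0.26 and −0.32, and TUBB6 at 0.05 and 0.03. Past 1.5-fold, 0 of 10 genes were lower in A673 (18.0% of active genes) and 0 higher (2.33%). In SKNMC 1 of 10 was lower, TUBB4B (22.1%), and 0 were higher (3.77%). The median over the 10 genes was 0.06 in A673 and −0.12 in SKNMC, against −0.02 and −0.14 over active genes.

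The untreated lines were also set against each other. TUBB2B was 15.4 times as high in A673 as in SKNMC in FPKM, TUBB3 7.18 times, TUBB2A 2.62 times and TUBB4B 2.27 times. These 4 genes passed a 2-fold difference on the log2(FPKM + 1) scale, with values of 3.56, 2.79, 1.31 and 1.18, and 0 of the 10 were 2-fold lower in A673. Under scaling to the ribosomal protein genes TUBA1B (1.05), TUBB6 (1.07) and TUBA1C passed it too, which made 7, where 16.0% of the genes counted below were 2-fold higher in A673 and 9.18% lower. Over 12399 genes above 1 FPKM in at least 1 of the DMSO libraries, 8.42% were 2-fold higher and 15.0% 2-fold lower in A673 as deposited. The alpha genes differed by 0.53 (TUBA1A), 0.63 (TUBA1B) and 0.82 (TUBA1C), TUBB6 by 0.65 and TUBB by 0.13. TUBG1 was the exception in direction, at −0.61. TUBB alone changed sign under a scaling, to the 75th percentile of active genes. Of the 4 listed neuronal markers, RBFOX3 (1.27 and 0.214 FPKM), ELAVL3 (1.10 and 0.0307) and SYP were likewise higher in A673 than in SKNMC with DMSO, and DCX was lower (0.0322 and 8.61).

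Genes with the most similar profile were sought for each tubulin gene among 5978 other genes above 10 FPKM in both DMSO libraries, by the root mean square difference of log2(FPKM + 1) over the 6 libraries, centred within each line. For TUBA1B these were STT3A, CNIH1 and QARS, with differences of 0.01, 0.01 and 0.02, and for TUBA1A the nearest were EIF5A and SEC61B. TUBA1C was nearest to PDE4DIP, MMGT1 and NADK. For TUBB they were SNRPE, ELOVL5 and IARS2, for TUBB4B they were ADIPOR2, CSNK1E and TOLLIP, and for TUBB3 they were UGT3A2, PDAP1 and GGCX. TUBB6 was nearest to CCND1, TFPT and YPEL5, with differences of 0.03, 0.03 and 0.04. CCND1, which encodes cyclin D1, had 711, 461 and 505 FPKM in A673 and 370, 197 and 202 in SKNMC. TUBB2A was nearest to LMNA, ASCC3 and CTNNB1, TUBB2B to COX14, IMPDH2 and TPD52L2, and TUBG1 to PRKAG1, MRPS7 and APITD1. With 6 values per gene and so many candidates, close matches of this kind carry no statement on function.

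Other genes were described by 8 lists, the last of other abundant cytoskeletal genes, such as actins and lamins, and the rest of the microtubule pathway. The values of these lists are as deposited and were not recomputed under the other scalings. Beside their counts stand the shares of all active genes that were 1.5-fold lower, 31.8% and 41.1% in A673 and 33.5% and 48.0% in SKNMC, and beside their medians the active medians of −0.27, −0.40, −0.32 and −0.55. Of 13 other tubulin genes 12 were listed and 5 were active in each line. Past 1.5-fold, 2 of 5 were lower in A673 at 50 nM and 2 of 5 at 200 nM, and 1 of 5 and 2 of 5 in SKNMC, with 0 higher, which with so few genes is near the shares of active genes. The medians of the list were −0.39, −0.40, −0.38 and −0.53. TUBD1, the delta-tubulin gene of centrioles, stood at 7.65, 0.36 and 0.98 FPKM in A673 and at 6.94, 0.78 and 1.30 in SKNMC. Its THZ1 libraries were far below DMSO in both lines. Values of −2.67, −2.12, −2.16 and −1.79 on the log2 scale made it the lowest of the active tubulin genes in each comparison.

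In the list of the gamma-tubulin ring complex and its recruiters 13 of 13 genes were active. Lower by 1.5-fold were 2 and 3 genes in A673 at 50 and 200 nM and 0 and 3 in SKNMC, with 0 higher, and these shares, at most 23.1%, lay below those of active genes in each comparison. The medians were −0.10, −0.16, 0.04 and −0.12. TUBGCP5, a ring complex subunit picked after its values were seen, was among them at both doses in A673 (−0.79 and −0.97) and at 200 nM in SKNMC (−0.61). The most abundant were MZT2B and MZT2A, small subunits of the ring complex. MZT2B stood at 133, 151 and 188 FPKM in A673 and 147, 175 and 215 in SKNMC, and MZT2A at 56.2, 63.0 and 71.6 in A673 and 76.6, 84.3 and 106 in SKNMC. Both had their highest value at 200 nM in each line, with log2 fold changes of 0.50 and 0.34 in A673 and 0.55 and 0.47 in SKNMC.

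The tubulin folding list, prefoldin subunits and tubulin cofactors, had 15 of 15 genes active, with 2 and 3 lower in A673, below the 31.8% and 41.1% of active genes, and 5 and 5 in SKNMC, or 33.3% beside 33.5% and 48.0%. Its medians were −0.11, 0.07, −0.19 and −0.45. TBCEL and TBCCD1, relatives of the tubulin cofactors, were the genes the fold rule named. TBCEL stood at 6.55, 1.90 and 2.61 FPKM in A673 and 5.21, 1.97 and 2.74 in SKNMC, and TBCCD1 at 7.23, 2.70 and 1.49 in A673 and 8.99, 4.90 and 2.87 in SKNMC. In the autoregulation list, TTC5 stood at 7.86, 3.81 and 4.33 FPKM in A673 and 8.66, 5.42 and 4.33 in SKNMC. CNOT11, a subunit of the CCR4-NOT deadenylase, stood at 29.8, 21.3 and 15.9 in A673 and 30.1, 20.3 and 15.0 in SKNMC. Both genes were below DMSO in the 4 THZ1 libraries. SCAPER, the remaining gene of the list, stood at 1.99, 2.56 and 2.53 FPKM in A673 and 6.09, 4.71 and 5.54 in SKNMC, with log2 values of 0.25, 0.24, −0.31 and −0.12, so that it was above DMSO in A673 and below it in SKNMC. Fold changes on the log2 scale were −0.88, −0.73, −0.59 and −0.86 for TTC5 and −0.46, −0.87, −0.54 and −0.96 for CNOT11. Of the 3 genes of this list 1 and 2 were 1.5-fold lower in A673 and 1 and 2 in SKNMC, too few to set beside a share, and the medians were −0.46, −0.73, −0.54 and −0.86.

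Of the genes of tubulin modification, enzymes and their partner proteins, 18 were active in A673 and 20 in SKNMC, of 23 listed from 24 symbols. Lower by 1.5-fold were 6 and 2 in A673, or 33.3% and 11.1% beside 31.8% and 41.1% of active genes. In SKNMC 5 and 6 were lower, below the 33.5% and 48.0% of active genes, and the medians were −0.32, −0.03, −0.36 and −0.17. By the same fold 1 gene was higher in SKNMC at 200 nM (2.81% of active genes), namely TTLL3 at 0.61, and it and the genes given below as higher were chosen after their values were seen. TTLL4, a glutamylase, stood at 30.2, 11.0 and 3.21 FPKM in A673 and at 22.4, 21.3 and 5.68 in SKNMC. Its log2 fold change at 200 nM was −2.89 in A673 and −1.81 in SKNMC. Of the microtubule-associated and end-binding genes, 16 were active in A673 with 3 and 7 lower, or 18.8% and 43.8% beside 31.8% and 41.1% of active genes. In SKNMC 19 were active with 4 and 7 lower, or 21.1% and 36.8% beside 33.5% and 48.0%, and 1 higher at 50 nM, MAPRE2 (0.59), where 2.43% of active genes were. The medians were −0.18, −0.52, −0.17 and −0.52. MAP7D1, a partner of kinesin-1 on microtubules, stood at 68.8, 42.3 and 28.4 FPKM in A673 and 64.3, 37.7 and 20.1 in SKNMC. CAMSAP2, which binds microtubule minus ends, stood at 15.9, 12.4 and 6.00 in A673 and 14.8, 11.3 and 4.87 in SKNMC, and MAP1S at 12.3, 10.2 and 2.41 and 8.15, 7.92 and 2.34. In these 3 genes the 200 nM library was the lowest of each line.

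Among genes that sequester tubulin or sever microtubules, 7 were active in A673 with 3 and 4 lower, or 42.9% and 57.1% beside 31.8% and 41.1% of active genes. In SKNMC 9 were active with 4 and 6 lower, or 44.4% and 66.7% beside 33.5% and 48.0%, and 1 higher at 50 nM, FIGN (0.80), where 2.43% of active genes were. The medians were −0.29, −0.64, −0.20 and −0.86. STMN1, which sequesters tubulin dimers and is the most abundant gene of the list, stood at 485, 597 and 636 FPKM in A673 and 539, 680 and 628 in SKNMC, with log2 values of 0.30, 0.39, 0.33 and 0.22. Its relative STMN3 stood at 67.6, 78.2 and 96.1 in A673 and 52.8, 50.6 and 59.1 in SKNMC, with log2 values of 0.21, 0.50, −0.06 and 0.16. Both were picked after their values were seen. FIGNL1, an ATPase of the severing family, stood at 15.8, 6.90 and 4.25 FPKM in A673 and 21.0, 13.1 and 9.01 in SKNMC. KATNA1, the catalytic subunit of katanin, stood at 14.5, 11.7 and 4.76 in A673 and 11.0, 9.38 and 3.38 in SKNMC. Of 15 other abundant cytoskeletal genes, 0 and 1 were lower in A673 and 0 and 1 in SKNMC, at most 6.67% and below the shares of active genes, with 1 higher in SKNMC at each dose, LMNA at 50 nM (0.64) and TMSB10 at 200 nM (0.69), beside 2.43% and 2.81% of active genes. Among genes above 100 FPKM in SKNMC with DMSO, 1.05% and 8.92% were higher at these doses. ACTB and ACTG1, the cytoplasmic actins, stood at 2374, 2690 and 2868 and at 1948, 1897 and 1996 FPKM in A673, and at 1693, 1838 and 1827 and at 1193, 1240 and 1242 in SKNMC. The medians of this list were 0.18, 0.26, 0.12 and 0.07.

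**Figure D5:**
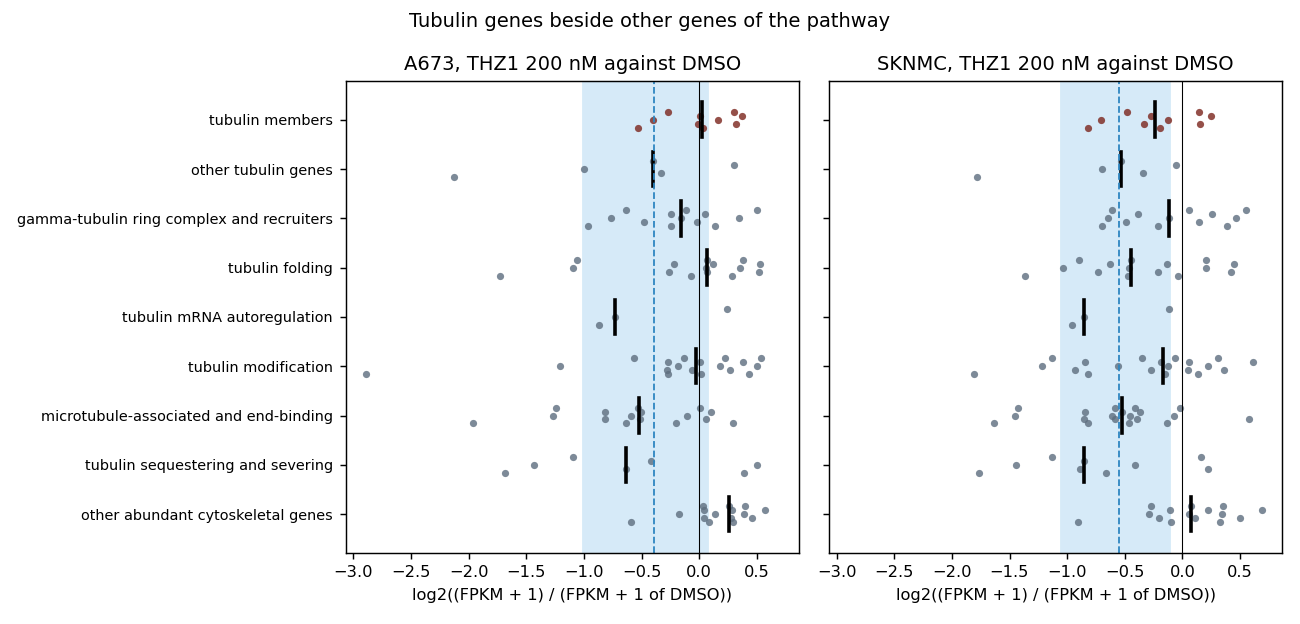
log2 fold change at 200 nM THZ1 (x axis, FPKM with 1 added, against DMSO) of the tubulin genes and of the active genes of 8 lists (y axis), each point 1 gene and each black bar a median; the dashed line and the shaded band are the median and the interquartile range of all active genes. The tubulin medians, 0.02 in A673 and −0.24 in SKNMC, lie right of the dashed lines at −0.40 and −0.55, as do in both lines those of the ring complex, folding, modification and abundant cytoskeletal lists, while those of the autoregulation list and of the sequestering and severing list lie left of them in both.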

How the data were processed

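The deposited FPKM values of 27420 genes in 6 libraries were used as given; the authors aligned the reads to hg19 with STAR, and the submitters' notes name Cufflinks and the study's methods StringTie for the expression estimate, with no versions. The deposited log2 fold-change columns hold the authors' own comparisons and were not used. Read depth is unknown. Log2 fold changes used a pseudocount of 1 and calls a 1.5-fold threshold (2-fold between lines), computed with python 3.11.15, numpy 2.4.6 and pandas 2.3.3 and drawn with matplotlib 3.10.9. Only the 1.5-fold calls and the scalings were tested on simulated data. The sequence steps, the shares within a family, the search for similar profiles and the comparison of signs were not. Sequences came from GRCh37 with GENCODE release 44.

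The 10 genes and the 8 lists were chosen with earlier results of these data known. Besides the 10 genes, the rule named each list gene past 2-fold in the same direction in both lines at the same dose with DMSO FPKM above 5 in both, otherwise the 2 most abundant genes of a list, and the 3 genes most alike to each tubulin gene, of which the text gives 2 for TUBA1A. The second clause of the rule was read as applying to the 3 lists where the fold named no gene, and abundance as the mean of the DMSO libraries. Both readings were settled after values had been seen, and the mean of all 6 libraries would have named TMSB10 in place of ACTG1. A symbol listed more than once was taken at its most abundant entry. Alternatives were a pseudocount of 0.1, 3 scalings, other fold thresholds, other filters on the background genes and other sets of tubulin genes.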

Additional observations from a re-analysis of the deposited data

Results flagged for a closer look

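TUBB3 stood above DMSO in both A673 comparisons and below it in both SKNMC comparisons, with log2 values of 0.11 and 0.32 against −0.34 and −0.33, from DMSO levels of 156 and 21.7 FPKM. These signs depended on the scaling, as given above. UGT3A2 (0.12 and 0.34 against −0.33 and −0.32) and PDAP1 (0.12 and 0.36 against −0.30 and −0.27) had the same pattern and were picked for their likeness to TUBB3. The summed Ewing sarcoma markers did too (0.0026 and 0.10 against −0.16 and −0.22), as did PRKCB among them (0.089 and 0.41 against −0.16 and −0.11) and the epithelial marker KRT8 (0.19 and 0.24 against −0.10 and −0.0099). CCK, another Ewing sarcoma marker, had the opposite one, with −0.15 and −0.049 in A673 and 0.15 and 0.61 in SKNMC. Among the list genes, TUBB4A, a beta isotype, stood at 0.077 and 0.30 in A673 and −0.12 and −0.053 in SKNMC, and SCAPER at 0.25 and 0.24 and at −0.31 and −0.12. The prefoldin genes PFDN2 (0.069 and 0.069 against −0.025 and −0.47) and PFDN4 (0.17 and 0.12 against −0.053 and −0.46) had positive values in A673 and negative ones in SKNMC, as did TTLL5 (0.00015 and 0.18 against −0.15 and −0.063) and MYL12A (0.020 and 0.044 against −0.32 and −0.29). CDK5RAP2 had −0.089 and −0.16 in A673 and 0.021 and 0.14 in SKNMC. None of these differences between lines was tested, and the signs of genes other than TUBB3 were not recomputed under the other scalings.

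Signs were compared for 155 values: the tubulin genes, their sums, the named list genes, and the other list, marker, most-alike and overlapping genes above 1 FPKM in both DMSO libraries. Of these 14 had opposite signs between the lines at both doses. The values include sums and genes picked for their likeness to a tubulin gene, TUBB3 among them, so this count has no matching share of all genes. Counted apart, opposite signs at both doses were found for 1 of the 10 tubulin genes and for 7 of 90 list genes active in both lines. Over all 10574 genes active in both lines the number was 557, or 5.27%. Whether these shares differ was not tested. Which sets of genes were compared in this way was changed after outcomes had been seen, and the final set holds all of the earlier ones.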

How the results depend on the processing

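With a pseudocount of 0.1 or a common sum of listed FPKM, medians and sums moved by less than 0.1, the tolerance used; the smaller pseudocount put 1 gene (TUBB6) past 1.5-fold lower in A673 at 50 nM (36.1% of active genes). Leaving out the least and most abundant gene, or TUBB2A and TUBB2B (chosen after seeing the data), moved no median by 0.1, though without the former the sign changed in 3 of 4 comparisons. The other scalings moved each value, and the median of all active genes with it. In the order A673 50 and 200 nM, SKNMC 50 and 200 nM, the median over the 10 genes was 0.28, 0.39, 0.32 and 0.26 with the 75th percentile of active genes, and −0.18, −0.33, −0.29 and −0.79 with the ribosomal protein genes. Summed alpha FPKM had log2 fold changes of 0.45, 0.60, 0.50 and 0.65, and of −0.019, −0.13, −0.13 and −0.51; summed beta FPKM had 0.21, 0.30, 0.29 and 0.37, and −0.26, −0.43, −0.34 and −0.79. With the 75th percentile, 1, 3, 1 and 3 genes were 1.5-fold higher, beside 6.52%, 15.4%, 8.80% and 16.4% of active genes, and 0, 0, 1 and 0 lower, beside 23.1%, 29.5%, 22.7% and 26.6%. With the ribosomal protein genes, 1, 3, 3 and 7 were lower, beside 41.2%, 55.0%, 51.5% and 76.3%, and 0 higher in each, where below 1% of active genes were. Which scaling is closest to RNA per cell was not tested. At 2-fold, 0 genes were lower in each comparison, beside 15.9%, 25.3%, 15.8% and 27.3%, and 0 higher, beside 0.343%, 0.126%, 0.471% and 0.462%. At a lower log2 threshold of 0.32, 1, 2, 3 and 4 were lower, beside 46.6%, 53.4%, 49.8% and 62.9%, and 1, 1, 1 and 0 higher, beside 7.43%, 10.9%, 8.49% and 7.50%. Between the untreated lines, 7 genes were 2-fold higher in A673 with the ribosomal protein genes, beside 16.0% of all genes above 1 FPKM in a DMSO library, and 4 under the other settings, beside 10.5% with the smaller pseudocount, 8.57% with the common sum and 6.75% with the 75th percentile (alternatives chosen after seeing the data). Background genes above 10 FPKM, or protein-coding alone, moved no share at 1.5-fold by more than 1.5 times. A fit over both lines with line as a block was not run. Depth is unknown, so no counting interval could be given.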

Other observations

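FAM166A lies on the strand opposite TUBB4B, and its deposited gene model (chr9:140138035-140142222) overlaps the 3′ end of TUBB4B by 125 bases. In A673 it stood at 0.14, 3.31 and 9.76 FPKM with DMSO, 50 nM and 200 nM, and in SKNMC at 0.05, 1.03 and 5.21. The levels were thus ordered by dose in both lines, while TUBB4B itself was lowest at 200 nM in both. FAM166A was chosen after its values were seen, and the part of reads from TUBB4B in its values was not tested. The non-tubulin genes that overlap other tubulin genes on the opposite strand were lowest at 200 nM: AFG3L2, beside TUBB6, stood at 36.7, 28.4 and 18.8 FPKM in A673 and 29.0, 26.7 and 14.4 in SKNMC, and FAM134C, beside TUBG1, at 5.09, 1.73 and 0.95 and at 12.5, 7.52 and 2.44. PSMG4, beside TUBB2B, stood at 22.1, 15.5 and 9.03 FPKM in A673 and at 19.6, 13.6 and 7.94 in SKNMC.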
